A study of Mus musculus with 12 samples.

Results

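Acod1, Gch1, Ass1, Arg1, Arg2, Odc1, Ido1, Kynu, Kmo, and Nampt encode enzymes that inflamed cells use to rework arginine, tryptophan, NAD, and the citrate cycle. These 10 of the 54119 genes with counts were taken by symbol, and each symbol matched 1 gene of the mouse annotation on GRCm38. They were followed in vessels isolated from the mouse forebrain after removal of the meninges, after a systemic injection of LPS, the endotoxin of Gram-negative bacteria. The comparison asked how early after LPS, and how strongly, these genes change in the vessels.

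Acod1 (also known as Irg1) makes itaconate from cis-aconitate, an intermediate of the citrate cycle, and is known for its induction in activated macrophages. Gch1 starts the synthesis of tetrahydrobiopterin, the cofactor without which nitric oxide synthases do not make nitric oxide from arginine. Ass1 rebuilds arginine from citrulline, Arg1 and Arg2 split arginine into ornithine and urea, and Odc1 turns ornithine into putrescine, the first polyamine. Ido1 opens the kynurenine pathway of tryptophan breakdown, Kmo and Kynu act further along it, and Nampt is the rate-limiting enzyme of NAD salvage from nicotinamide.

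All mice were wild type C57BL6 animals of 2 to 3 months. The LPS 15 min, LPS 30 min, and LPS 4 h groups received 10 mg/kg LPS by intraperitoneal injection, and the control group received PBS. Each group had 3 libraries, and each library pooled vessels of 2 mice, 1 male and 1 female. A library is therefore an average over cells and over both animals, and fewer cells of a type and less RNA per cell cannot be told apart.

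The libraries held 18.3 to 25.9 M fragments. The 7 endothelial markers summed to 10178 to 10487 CPM in PBS and to 7591 to 7630 at 4 h, with 1 called higher (Cdh5) and 4 lower (Cldn5 and Slco1c1 among them) at 4 h. CPM are counts scaled to library size with TMM factors, which even out composition between libraries. Other markers moved with the groups. The summed neutrophil list was 4.46 to 5.04 CPM in PBS, 2.44 to 3.06 at 15 min, 4.92 to 7.41 at 30 min, and 204 to 206 at 4 h, with 6 of 7 genes tested and all 6 called higher at 4 h. Ly6g, a defining neutrophil gene, was at 0 in PBS and at 15 min. At 4 h it had only 0.154, 0.599, and 0.137 CPM, and it was too low to be tested. The monocyte list was 39.1 to 48.5 CPM in PBS and 167 to 169 at 4 h (4 of 5 called higher), the perivascular macrophage list 112 to 119 and 178 to 183 (3 of 5 called higher), and the microglia list 113 to 121 and 67.7 to 73.7 (4 of 7 called lower). The astrocyte list was 625 to 643 CPM in PBS and 1267 to 1316 at 4 h (3 of 5 called higher), and the neuron list 307 to 319 in PBS and 480 to 491 at 15 min (2 of 5 called higher). Xist, made in female cells, ranged from 254 to 371 CPM in PBS, 31.5 to 108 at 15 min, 11.6 to 20.9 at 30 min, and 125 to 184 at 4 h, although the labels give each pool 1 male and 1 female. Genes typical of pancreas and gut summed to 26.3 to 32.3 CPM at 15 min against 0 in PBS, and genes of skeletal muscle to 110 to 118 CPM at 30 min against 8.13 to 12.5. The part of these shifts in the results was not tested.

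RefSeq promoter windows were at hand for 6 of the 10 genes (Acod1, Gch1, Ass1, Odc1, Kmo, and Nampt). Those of the 2 genes called by 30 min, Gch1 and Acod1, and of Odc1, first called at 4 h, are shown. This order is only that of the calls beyond 1.5-fold. By 30 min the mean CPM of Acod1 had covered 0.511% of its difference between PBS and 4 h, and that of Odc1 3.24%. The sequences are written 5′ to 3′ on the strand of the gene (GRCm38.p6) and stop before the first annotated transcript start. Gch1 lies at chr14:47189414-47189663 on the minus strand, Acod1 at chr14:103046762-103046976 on the plus strand, and Odc1 at chr12:17544623-17544793 on the plus strand. Capitals mark the match to the NF-κB consensus.
Gch1: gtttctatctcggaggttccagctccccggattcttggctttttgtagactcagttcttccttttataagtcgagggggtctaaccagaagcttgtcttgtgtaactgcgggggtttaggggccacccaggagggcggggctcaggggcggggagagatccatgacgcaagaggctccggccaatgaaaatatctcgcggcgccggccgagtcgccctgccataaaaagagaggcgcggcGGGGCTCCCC
Acod1: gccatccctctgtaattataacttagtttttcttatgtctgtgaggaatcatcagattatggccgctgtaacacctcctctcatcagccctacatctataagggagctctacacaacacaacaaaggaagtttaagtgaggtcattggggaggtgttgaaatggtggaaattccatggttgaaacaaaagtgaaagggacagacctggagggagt
Odc1: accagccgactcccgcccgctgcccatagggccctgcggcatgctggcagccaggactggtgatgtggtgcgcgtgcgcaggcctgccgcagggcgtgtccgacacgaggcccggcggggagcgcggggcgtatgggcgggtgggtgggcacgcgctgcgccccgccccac

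In these lines Gch1 held the only match to the NF-κB consensus, in the last 10 bases before its start. Over 250 bases before the start, on both strands, 3.9% of 32851 promoters held such a match. No window of the 6 genes held the interferon-stimulated response element (ISRE, 2.98% of promoters), the STAT motif TTCNNNGAA (7.02%), the AP-1 motif TGANTCA (6.75%), or the cyclic AMP response element TGACGTCA (1.55%). The windows of Kmo and Nampt lie wholly after the first annotated transcript start, inside the gene. For these genes the sequence before that start was therefore not searched. The E-box CACGTG (6.02% of promoters) was found only in Ass1. GC content of the window was 59.2% for Gch1, 44.4% for Acod1, and 80% for Odc1. These are matches of letters in a short window and not evidence of binding.

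Gch1 was the first of the 10 genes to be called higher, at 15 min, Acod1 joined it at 30 min, and at 4 h Ido1, Odc1, Arg2, and Nampt were called as well. A gene was called when edgeR tested its change against a null of at most 1.5-fold and gave an adjusted p below 0.05 over the 19150 genes past the filter on low counts. Of the 10 genes 8 passed this filter. Arg1 and Kynu did not and are given by their counts. Acod1 had 0 to 5 counts in each PBS and LPS 15 min library. It was over the cutoff of the filter in 5 libraries, and in 2 without those of LPS 4 h. In the main fit it therefore passed only through the LPS 4 h group, where it is highest, and its calls carry this limit. At LPS 15 min 1 of the 8 tested members was called higher and 0 lower, where 3.31% of all genes tested were called higher and 0.872% lower. At LPS 30 min 2 were called higher and 0 lower (3.78% and 0.799% of all genes). At LPS 4 h 6 were called higher and 0 lower (19.0% and 13.8% of all genes). The members were chosen with earlier results of these data known. Their counts beside these shares therefore do not test whether they change more often than other genes. Between the LPS groups, 1 gene was called higher at 30 min than at 15 min (2.69% of all genes), and 6 were called higher at 4 h than at 30 min (16.9%).

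**Figure D1:**
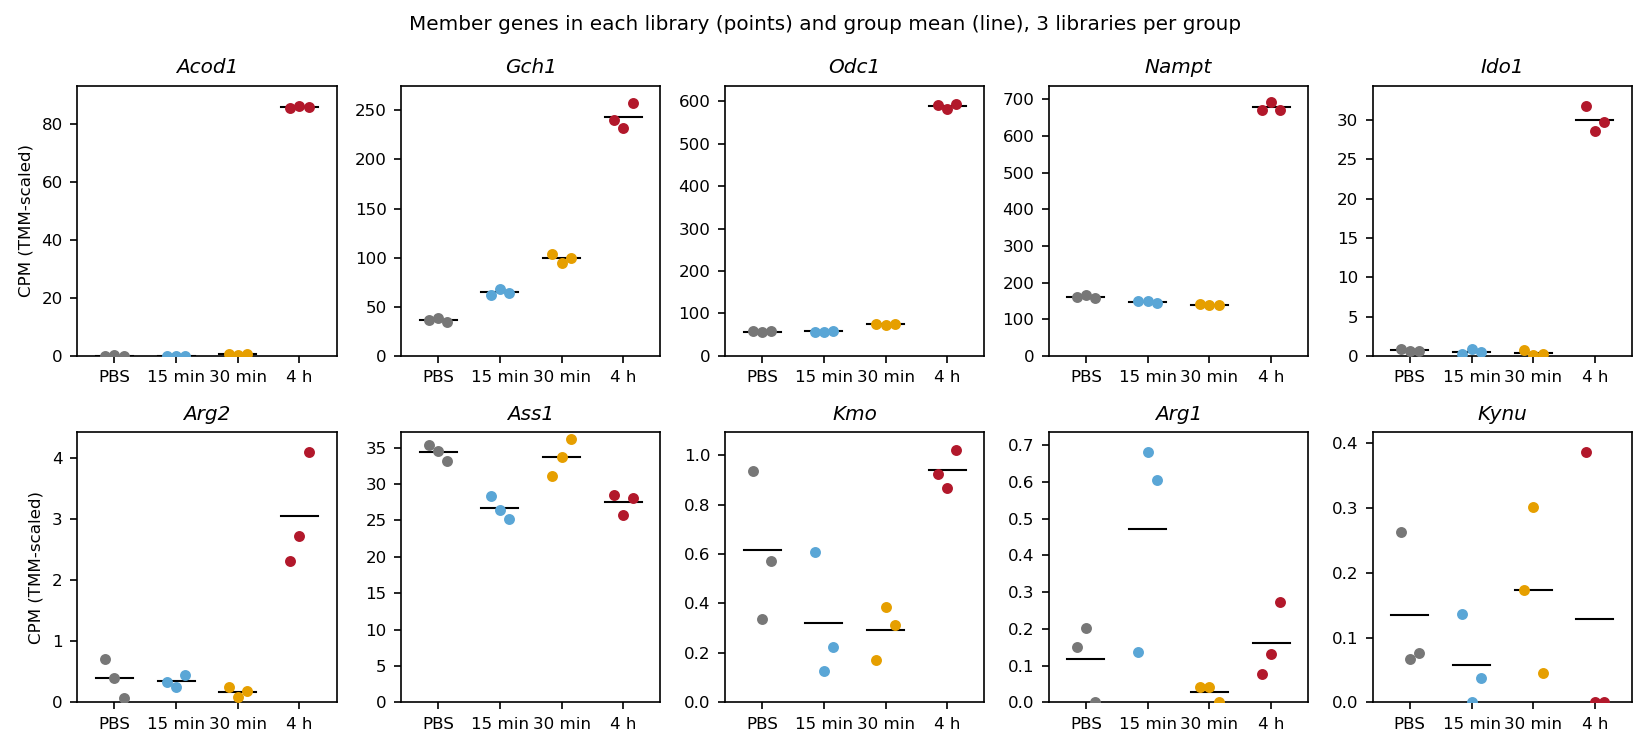
CPM of the 10 genes (vertical axes, each starting at 0) in the PBS group and the 3 LPS groups, with 1 point per library and a line at the group mean. Gch1 climbs from 34.7 to 38.1 CPM in PBS through both early times to 232 to 257 CPM at 4 h, while Acod1, Odc1, Nampt, Ido1, and Arg2 stand apart from the other groups at 4 h.

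**Figure D2:**
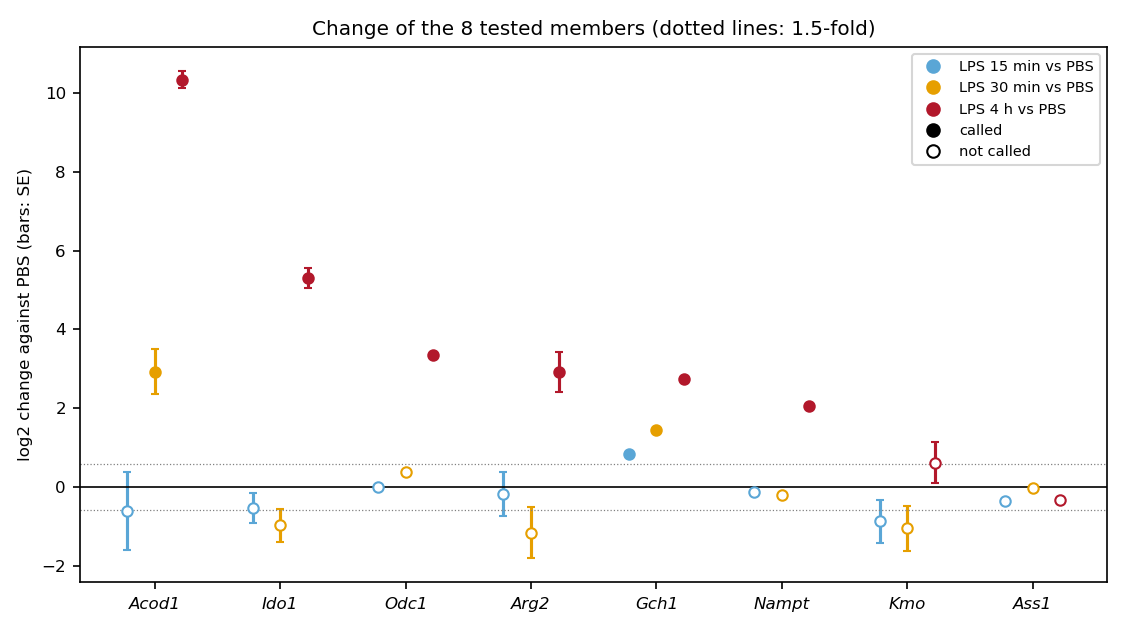
Log2 change against PBS (vertical axis) of the 8 genes past the filter at each time, with SE bars, filled where called and empty where not, and dotted lines at 1.5-fold. Gch1 is the only gene filled at all 3 times, and Kmo and Ass1 stay empty.

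The itaconate gene Acod1 (ENSMUSG00000022126, chr14:103046977-103056573, plus strand) went from near absence to a high level. PBS libraries 1 to 3 held 0, 5, and 0 counts, and the LPS 15 min libraries 2, 0, and 1. They were 13, 10, and 11 at LPS 30 min and 1110, 1294, and 1259 at LPS 4 h. The libraries at 30 min were all above those of PBS and LPS 15 min, and those at 4 h above all others. In CPM the group means were 0.0562 ± 0.0974, 0.0352 ± 0.034, 0.495 ± 0.0666, and 85.9 ± 0.31 (SD, n = 3 each). Acod1 was called higher than in PBS 30 min after LPS, with a log2 change of 2.92 (SE 0.572, adjusted p = 0.00395). At 4 h the change had reached 10.35 (SE 0.21, adjusted p = 1.08e-21). Acod1 also rose by 3.53 between 15 and 30 min (SE 0.636, adjusted p = 0.00155), a call lost in limma with a pseudocount of 10 (adjusted p = 0.663). In a fit on those groups alone Acod1 did not pass the filter on low counts. Between 30 min and 4 h it rose by 7.42 (SE 0.164, adjusted p = 7.63e-21).

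Because the starting counts are few, the size of this rise is loosely fixed. The ratio of summed counts was 8.18 at 30 min (exact 95% interval 3.18 to 26.8, counting error only) and 1417 at 4 h (607 to 4368). All 5 PBS counts came from library 2. Without it the other PBS libraries were at 0. Against an assumed 3 counts over both, the level was 8.74-fold higher at 30 min and 1515-fold higher at 4 h. These values leave out the only PBS library with counts and rest on an assumed count, so they are not lower bounds. The lower limits over all libraries are the 3.18 and 607 given above. The call at 30 min did not hold in a fit on only PBS and LPS 30 min (adjusted p = 0.0741) or in limma with a pseudocount of 10 (0.98). Against the 85.6 to 86.2 CPM of Acod1 at 4 h stand the neutrophil and monocyte lists given above, which rose at the same time, and their part in the result was not tested.

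Gch1 (ENSMUSG00000037580, chr14:47153895-47189413, minus strand) rose at every step. It had 37.0, 38.1, and 34.7 CPM in PBS, 62.4, 68.1, and 64.2 at LPS 15 min, 104, 94.7, and 99.4 at LPS 30 min, and 240, 232, and 257 at LPS 4 h. No library of any group overlapped with that of another group. Against PBS Gch1 was 1.77-fold higher at 15 min, a log2 change of 0.82 (SE 0.0508) with an adjusted p of 0.000426. The rise reached 2.71-fold at 30 min (1.44, SE 0.0497, adjusted p = 2.73e-13). By 4 h Gch1 stood 6.62-fold above PBS (2.73, SE 0.0489, adjusted p = 7.32e-22). Under other scalings and tests this 4 h change ranged from 2.02 to 2.73. By 15 min the mean had covered 13.7% of its difference between PBS and 4 h, and by 30 min 30.5%. The step from 15 to 30 min (0.62, SE 0.0469) was not called beyond 1.5-fold (adjusted p = 0.871), and against a null of no change its adjusted p was 3.59e-10. The step from 30 min to 4 h was called (1.29, SE 0.0448, adjusted p = 2.01e-13). The 15 min call was lost in limma on the normalized gene table, at 0.80 with a pseudocount of 1 (adjusted p = 0.0532) and 0.79 with 10 (adjusted p = 0.0633). One transcript, Gch1-201, took 94.4% to 95.8% of the fragments on average in each group.

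Of the genes that make and use arginine and ornithine, Odc1 and Arg2 rose at 4 h and Ass1 did not. Ass1 (ENSMUSG00000076441, chr2:31470207-31520672, plus strand) had 35.4, 34.5, and 33.1 CPM in PBS and 28.4, 26.4, and 25.2 at LPS 15 min. It had 31.1, 33.7, and 36.2 at LPS 30 min and 28.5, 25.7, and 28.1 at LPS 4 h. The 15 min and 4 h libraries were all below those of PBS, by a small margin, while those of 30 min overlapped with PBS. The changes were -0.36 (SE 0.0651), -0.03 (SE 0.0646), and -0.32 (SE 0.07), each with an adjusted p of 1 against the 1.5-fold null. The size of the 4 h difference depended on the scaling. With library size alone it was -1.03 and called lower (adjusted p = 5.75e-07), where that scaling moved the median of all genes by -0.71, and the TPM fell from 37.2 to 39.2 in PBS to 14.7 to 17.8 at 4 h. The pseudogene Gm5424, 99.5% identical over 1240 bases, had 0 counts in every group.

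Arg2 (ENSMUSG00000021125, chr12:79130777-79156301, plus strand), the mitochondrial arginase, had low counts of 19, 12, and 2 in PBS, 10, 6, and 12 at LPS 15 min, and 6, 2, and 4 at LPS 30 min. At LPS 4 h it had 30, 41, and 60. The first 3 groups overlapped and the 4 h libraries lay above all of them. On the CPM scale Arg2 went from 0.398 ± 0.318 in PBS to 3.05 ± 0.934 at 4 h (SD, n = 3 each), a change of 2.92 (SE 0.501, adjusted p = 0.000118). The difference between 4 h and 30 min was 4.08 (SE 0.573, adjusted p = 6.63e-06). The gene overlaps with Vti1b on the opposite strand and shares 285 bases of transcript with it, and the kit keeps no strand, so fragments there cannot be told apart. Vti1b had 60.2 CPM in PBS and 61.8 at 4 h.

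Arg1 (ENSMUSG00000019987, chr10:24915221-24927484, minus strand), the cytosolic arginase, stayed near the limit of detection. Its counts were 4, 6, and 0 in PBS, 4, 16, and 16 at LPS 15 min, 1, 1, and 0 at LPS 30 min, and 1, 2, and 4 at LPS 4 h. The summed counts of 36 at 15 min and 10 in PBS gave a ratio of 3.73 (exact 95% interval 1.81 to 8.42, counting error only), but library 1 at 15 min lay within the range of PBS. The genes of pancreas and gut were also highest at 15 min, and their part in the Arg1 counts was not tested. With no filter Arg1 was tested, and it was called lower at 30 min than at 15 min (-3.79, adjusted p = 0.0382) and not called at 15 min against PBS (1.93, adjusted p = 0.712). DESeq2 did not make the call between 15 and 30 min (-4.01, adjusted p = 0.259).

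Odc1 (ENSMUSG00000011179, chr12:17544794-17551505, plus strand) had 57.6, 56.7, and 58.1 CPM in PBS and 56.7, 56.5, and 59.6 at LPS 15 min. It had 75.7, 74.0, and 74.4 at LPS 30 min and 590, 582, and 593 at LPS 4 h. The 15 min libraries spanned those of PBS, the 30 min libraries lay above both, and the 4 h libraries far above all. The change of 0.38 (SE 0.0319) at 30 min was below the 1.5-fold null (adjusted p = 1) and had an adjusted p of 1.79e-09 against no change. At 4 h it was 3.36 (SE 0.03, adjusted p = 4.57e-28), or 10.2-fold. Under other scalings and tests this 4 h change ranged from 2.65 to 3.38. The fragments that Salmon gave to Odc1-205, a transcript annotated as subject to nonsense-mediated decay, made up 10.9% of the gene in PBS and 14% at 4 h. The main transcript Odc1-201 went from 49.3 to 51.5 CPM in PBS to 494 to 497 CPM at 4 h. Another 7 annotated genes share at least 95% of their bases with Odc1 over at least 200 bases. They had 0 to 178 counts each over the 4 h libraries, against 25082 for Odc1. Over the PBS libraries they had 0 to 851 counts each, against 4741 for Odc1. The highest in PBS was AW146154, which had 172 counts at 4 h. The part of shared sequence in the Odc1 counts was not tested.

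Of the 3 tryptophan genes among the 10, Ido1 was called at 4 h, Kmo was not, and Kynu was too low to test. Ido1 (ENSMUSG00000031551, chr8:24584136-24597009, minus strand) had 0.899, 0.675, and 0.687 CPM in PBS, 0.237, 0.85, and 0.528 at LPS 15 min, and 0.737, 0.129, and 0.268 at LPS 30 min. At LPS 4 h it had 31.8, 28.6, and 29.7. The 3 earlier groups overlapped, and the 4 h libraries were far above them. The early changes of -0.53 (SE 0.382) and -0.98 (SE 0.421) were not called (adjusted p = 1 and 0.795), and at 4 h the change was 5.31 (SE 0.26, adjusted p = 4.91e-14), or 39.7-fold. Against 30 min it was 6.29 (SE 0.294, adjusted p = 2.21e-14). As for Acod1, the neutrophil and monocyte lists rose at the same time, and their part in the result was not tested.

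The Ido1 fragments also moved between transcripts, a point noticed after the values were seen and given as a description. Ido1-201 and Ido1-202 share exons 2 to 10 and differ in exon 1, which lies at chr8:24596841-24597009 in Ido1-201 and at chr8:24595402-24595666, closer to exon 2, in Ido1-202. In PBS all 24, 20, and 18 fragments were assigned to Ido1-202. At 15 min library 1 gave all 7 fragments to Ido1-201, and libraries 2 and 3 all 20 and 14 to Ido1-202. At 30 min library 1 gave all 17 to Ido1-202, and libraries 2 and 3 all 3 and 6 to Ido1-201. At 4 h Ido1-201 held 405, 406, and 385 fragments and Ido1-202 6.7, 23.7, and 50.1. The share of Ido1-202 was therefore 100% in each PBS library and 1.63% to 11.5% at 4 h. At the depth of the early groups only fragments that reach exon 1 can separate the transcripts, and the assignment was all or nothing.

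**Figure D3:**
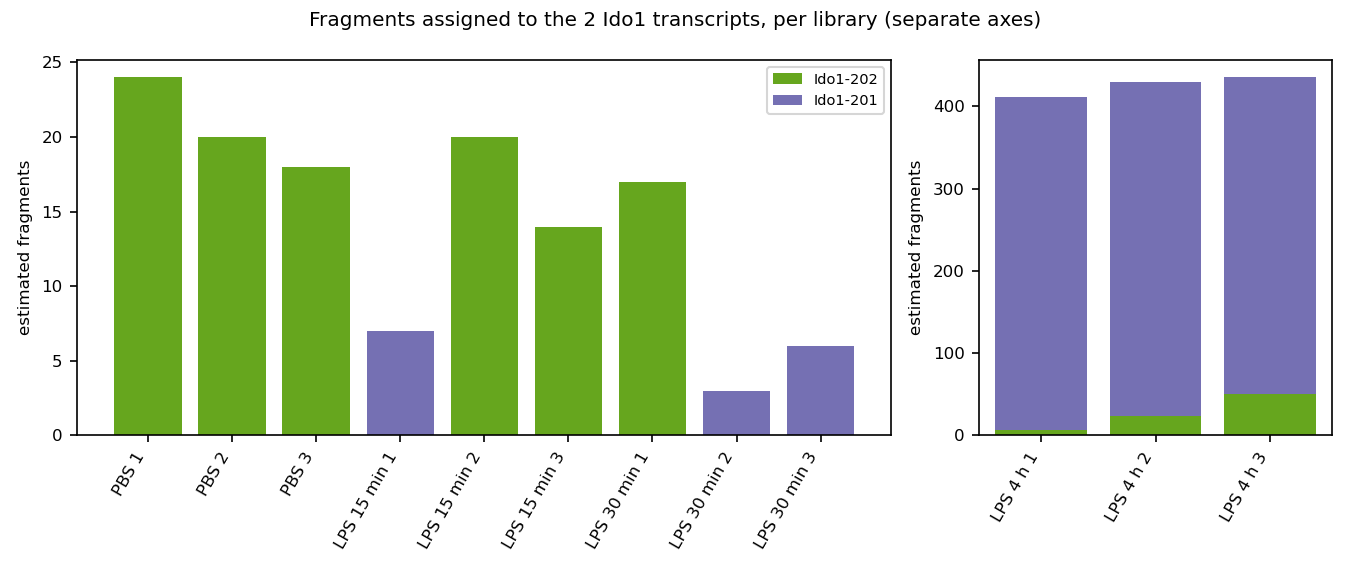
Estimated fragments (vertical axes, which differ between the panels) that Salmon assigned to the Ido1 transcripts in each library, PBS and the early times on the left and 4 h on the right. The PBS bars hold Ido1-202 alone, at 18 to 24 fragments, and at 4 h 385 to 406 fragments of each bar are Ido1-201.

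Kmo and Kynu, which act on kynurenine, showed no call against PBS. Kmo (ENSMUSG00000039783, chr1:175620381-175662116, plus strand) had 0.937, 0.337, and 0.573 CPM in PBS, 0.61, 0.127, and 0.226 at LPS 15 min, 0.173, 0.387, and 0.313 at LPS 30 min, and 0.925, 0.866, and 1.02 at LPS 4 h. The 4 h libraries were close to each other and overlapped with PBS. The change at 4 h was 0.61 (SE 0.528, adjusted p = 0.659), and that between 30 min and 4 h 1.67 (SE 0.585, adjusted p = 0.0641). Kmo overlaps with Fh1 on the opposite strand. Kynu (ENSMUSG00000026866, chr2:43555329-43682715, plus strand) had counts of 7, 2, and 2 in PBS, 4, 0, and 1 at LPS 15 min, 4, 7, and 1 at LPS 30 min, and 5, 0, and 0 at LPS 4 h. Over each group these sum to 5 to 12, and a change in Kynu was not detectable at this depth.

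Nampt (ENSMUSG00000020572, chr12:32819545-32853349, plus strand) dipped slightly before it rose. It had 162, 165, and 159 CPM in PBS, 150, 150, and 145 at LPS 15 min, and 142, 140, and 139 at LPS 30 min. At LPS 4 h it had 672, 692, and 670. Each group was apart from every other group. The early differences of -0.13 (SE 0.0266) and -0.21 (SE 0.027) were within the 1.5-fold null (adjusted p = 1 for both), and against no change they had adjusted p values of 0.000509 and 1.36e-06. At 4 h Nampt was 4.18-fold higher (2.06, SE 0.0262, adjusted p = 3.43e-24), and relative to 30 min the change was 2.28 (SE 0.0268, adjusted p = 6.29e-25). Under other scalings and tests the 4 h change against PBS ranged from 1.36 to 2.07. Nampt-201 took 99.4% to 99.8% of its fragments on average.

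Compared per transcript length, the order of the members changed with time. In TPM, a share of all transcripts that takes length into account, Nampt led in PBS with 66.7 ± 1.41, ahead of Odc1 with 49.4 ± 0.895, Ass1 with 38.0 ± 1.02, and Gch1 with 22.4 ± 1.3 (SD, n = 3 each). Each of these neighbours was apart in all libraries. The other 6 genes were at 0.841 or less on average, and their neighbours in the order overlapped. At 15 min Gch1 (39.3 ± 1.73) stood above Ass1 (30.9 ± 1.83), and at 30 min Odc1 (54.3 ± 2.11) and Gch1 (49.1 ± 2.53) stood above Nampt (43.2 ± 0.686). At 4 h Odc1 led with 279 ± 5.35, followed by Nampt with 147 ± 4.69, Gch1 with 79.4 ± 4.18, Acod1 with 29.7 ± 0.321, Ido1 with 19.1 ± 1.27, Ass1 with 16.3 ± 1.56, and Arg2 with 2.19 ± 0.661, all apart from their neighbours. Kmo, Arg1, and Kynu remained at 0.309 or less and overlapped. The summed TPM of the 10 genes was 179 ± 4.25 in PBS, 180 ± 2.41 and 178 ± 5.12 at the early times, and 574 ± 6.96 at 4 h. TPM are not scaled with TMM factors, so changes between groups differ in size from those in CPM.

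**Figure D4:**
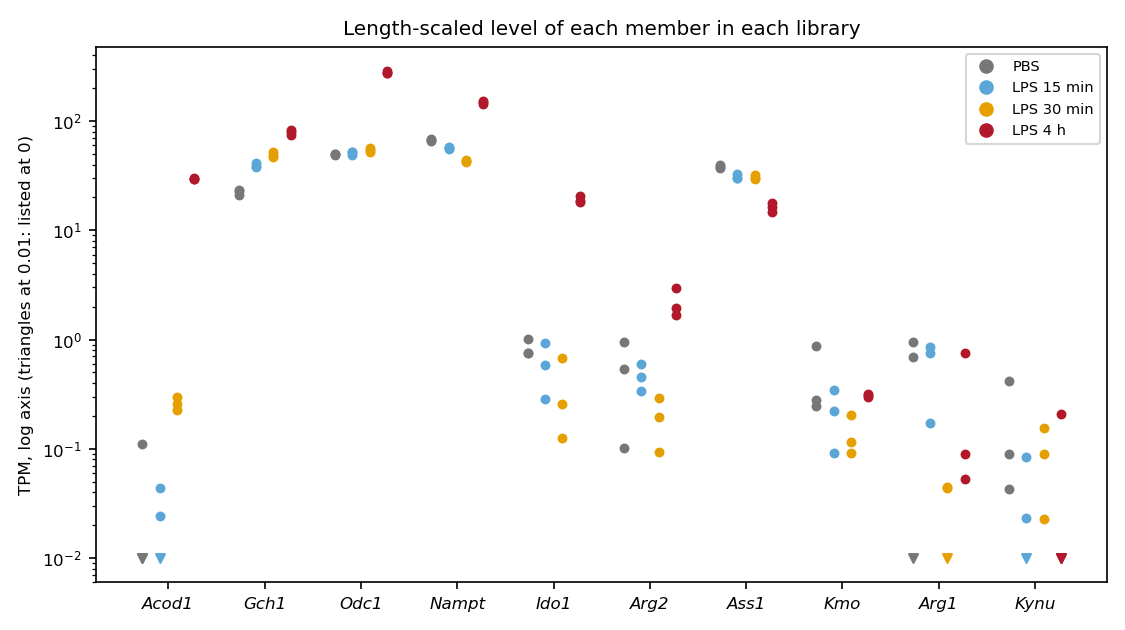
TPM of each gene (log axis) in each library, coloured by group, with triangles at 0.01 for libraries where the gene is listed at 0. Odc1 at 275 to 285 TPM and Nampt at 142 to 151 TPM are the highest at 4 h, and Acod1 crosses from 0.11 TPM or 0 in PBS to 29.5 to 30.1 TPM.

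For each gene past the filter, the genes with the most similar course were found by the correlation of log2 CPM over the 12 libraries. The libraries fall into 4 groups, so a high value mainly reflects shared group means. Nampt was most like Oasl2 (r = 1.000) and Trim21 (0.999), and Odc1 like Birc2 and Stat3 (1.000 each). Gch1 was most like Plk2 (0.997) and Eif4a1 (0.996), of which Plk2 had 102, 159, 207, and 413 CPM in the order of time. Acod1 was closest to Ralb and Arpc1b (0.996 each), Ido1 to Smcr8 (0.992) and A930037H05Rik (0.989), Arg2 to Kpna6 (0.971) and Ep400 (0.960), Ass1 to C1qtnf7 (0.957) and Scd2 (0.930), and Kmo to Slc35f6 (0.871) and Gm11131 (0.869). The correlation takes no account of the size of a change. From PBS to 4 h Acod1 went from 0.0562 to 85.9 CPM, Ralb from 67.1 to 316, and Arpc1b from 188 to 339. Ido1 went from 0.754 to 30.0 CPM, Smcr8 from 24.5 to 36.3, and A930037H05Rik from 1.57 to 8.99.

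The other genes of these pathways were called in both directions at 4 h, as were all genes. Of 84 genes in 6 lists 78 were tested. At LPS 15 min 1 was called higher and 0 lower, at LPS 30 min 1 higher and 2 lower, and at LPS 4 h 14 higher and 13 lower. These counts, and those of each list below, are to be read beside the shares of all genes given above. At 4 h these shares were 19.0% called higher and 13.8% called lower. The medians over the tested genes were -0.14, -0.02, and -0.07, and those over all genes -0.00, -0.01, and -0.01. At 15 min the single call was Slc7a5, which imports large neutral amino acids such as tryptophan, at 474 CPM in PBS and 746 at 15 min (0.65, adjusted p = 0.028). This call was lost in 10 of 16 other settings, DESeq2 (0.63, adjusted p = 0.757) and limma among them.

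In the arginine and nitric oxide list, 2 of 11 tested genes were called higher and 4 lower at LPS 4 h (median -0.52), and none at the earlier times. Nos2, the inducible nitric oxide synthase, went from 15.8 ± 1.56 to 52.8 ± 2.22 CPM (1.74, SE 0.0732, adjusted p = 1.66e-13), and the arginine transporter Slc7a2 from 42.4 ± 1.72 to 95.6 ± 2.16 CPM (1.17, adjusted p = 6.75e-12). Nos3, the endothelial synthase, fell from 566 ± 0.937 to 258 ± 11.4 CPM (-1.13, SE 0.0291, adjusted p = 4.59e-15). Gatm, which uses arginine for creatine synthesis, fell from 167 to 43.6 CPM (-1.94), and Ddah1, which clears methylarginines that inhibit nitric oxide synthases, from 38.0 to 16.2 CPM (-1.23). The transporter Slc7a1 had 199 and 129 CPM (-0.63, adjusted p = 0.132) and the neuronal synthase Nos1 92.5 and 66.4 CPM (-0.48, adjusted p = 1).

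Of the polyamine list, 4 of 13 genes were called higher and 2 lower at 4 h (median 0.29). Sat1, which acetylates spermidine and spermine for export and breakdown, rose early, from 79.6 CPM in PBS to 119 at 15 min (0.58, not called), 183 at 30 min (2.29-fold, adjusted p = 3.06e-15), and 490 at 4 h (2.62, adjusted p = 4.78e-26). Azin1, which relieves Odc1 of its antizyme, went from 105 to 268 CPM (1.35, adjusted p = 2.35e-16), the polyamine transporter Atp13a3 from 102 to 267 CPM (1.40), and the spermine oxidase Smox from 65.1 to 145 CPM (1.16). Atp13a2 fell from 98.4 to 45.3 CPM (-1.12). The antizymes Oaz1 (193 and 224 CPM, 0.21) and Oaz2 (227 and 193 CPM, -0.23) were not called.

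The steps of tetrahydrobiopterin synthesis after Gch1 did not share its rise. None of the 7 genes of the list was called higher and 3 were called lower at 4 h (median -0.61). Spr, the last enzyme of the synthesis, went from 62.2 ± 2.24 to 34.9 ± 3.67 CPM (-0.84, SE 0.0628, adjusted p = 0.000224), and the recycling genes Qdpr and Pcbd2 changed by -0.96 and -1.09. Pts, the middle enzyme, had 28.5 and 18.8 CPM (-0.60, adjusted p = 0.439), and Gchfr, which binds and regulates the Gch1 enzyme, 0.928 and 0.6 CPM (-0.61, adjusted p = 0.576).

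The tryptophan list had 6 genes called higher and 1 lower of 14 tested at 4 h (median 0.65). Wars, the tryptophanyl-tRNA synthetase, rose from 69.5 ± 3.63 to 479 ± 8.89 CPM (2.78, SE 0.0411, adjusted p = 1.31e-23). Ido2, the neighbour and relative of Ido1, rose from 0.667 ± 0.264 to 3.01 ± 1.09 CPM (2.15, SE 0.413, adjusted p = 0.000683), Afmid, which acts right after Ido1, from 2.28 to 11.5 CPM (2.34, adjusted p = 1.3e-06), and Cyp1b1 from 37.5 to 87.5 CPM (1.22). Slc7a5 fell to 69.2 CPM at 4 h (-2.78, SE 0.0289, adjusted p = 1.79e-26), while its partner chain Slc3a2 had 343 and 450 CPM (0.39, not called). Tdo2, the other first enzyme of the pathway, had 0.365 and 0.336 CPM (-0.07), and Kyat1 15.1 and 23.5 CPM (0.63, adjusted p = 0.285). Ahr, a receptor that binds tryptophan metabolites and was picked out after its value was seen, was lower at 30 min (14.4 and 7.73 CPM, -0.90, adjusted p = 0.0372), a call lost in 9 of 16 other settings.

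In the NAD list 2 of 14 genes were called higher and 3 lower at 4 h (median 0.29). The genes called higher were Bst1 and Cd38, which encode ectoenzymes that use NAD, where 19.0% of all genes were called higher. Bst1 went from 4.36 to 20.5 CPM (2.23, SE 0.154, adjusted p = 3.96e-10), and Cd38 from 25.1 in PBS to 14.3 at 30 min (-0.81, adjusted p = 0.0398) and 47.4 at 4 h (0.92, adjusted p = 0.000125). The 30 min call of Cd38 was lost in 8 of 16 other settings. Naprt and Nadsyn1, which make NAD from nicotinic acid, fell by 1.15 and 1.28, and Parp1 by 0.76, on the log2 scale. Nmnat2 (22.7 and 30.2 CPM, 0.41), Sirt1 (29.9 and 36.6 CPM, 0.29), and Aox1 (29.9 and 36.6 CPM, 0.29) were not called. None of the 19 genes of the itaconate and citrate list was called at any time (median -0.09 at 4 h), with Sdha, a subunit of the enzyme that itaconate inhibits, at 193 and 195 CPM (0.02).

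**Figure D5:**
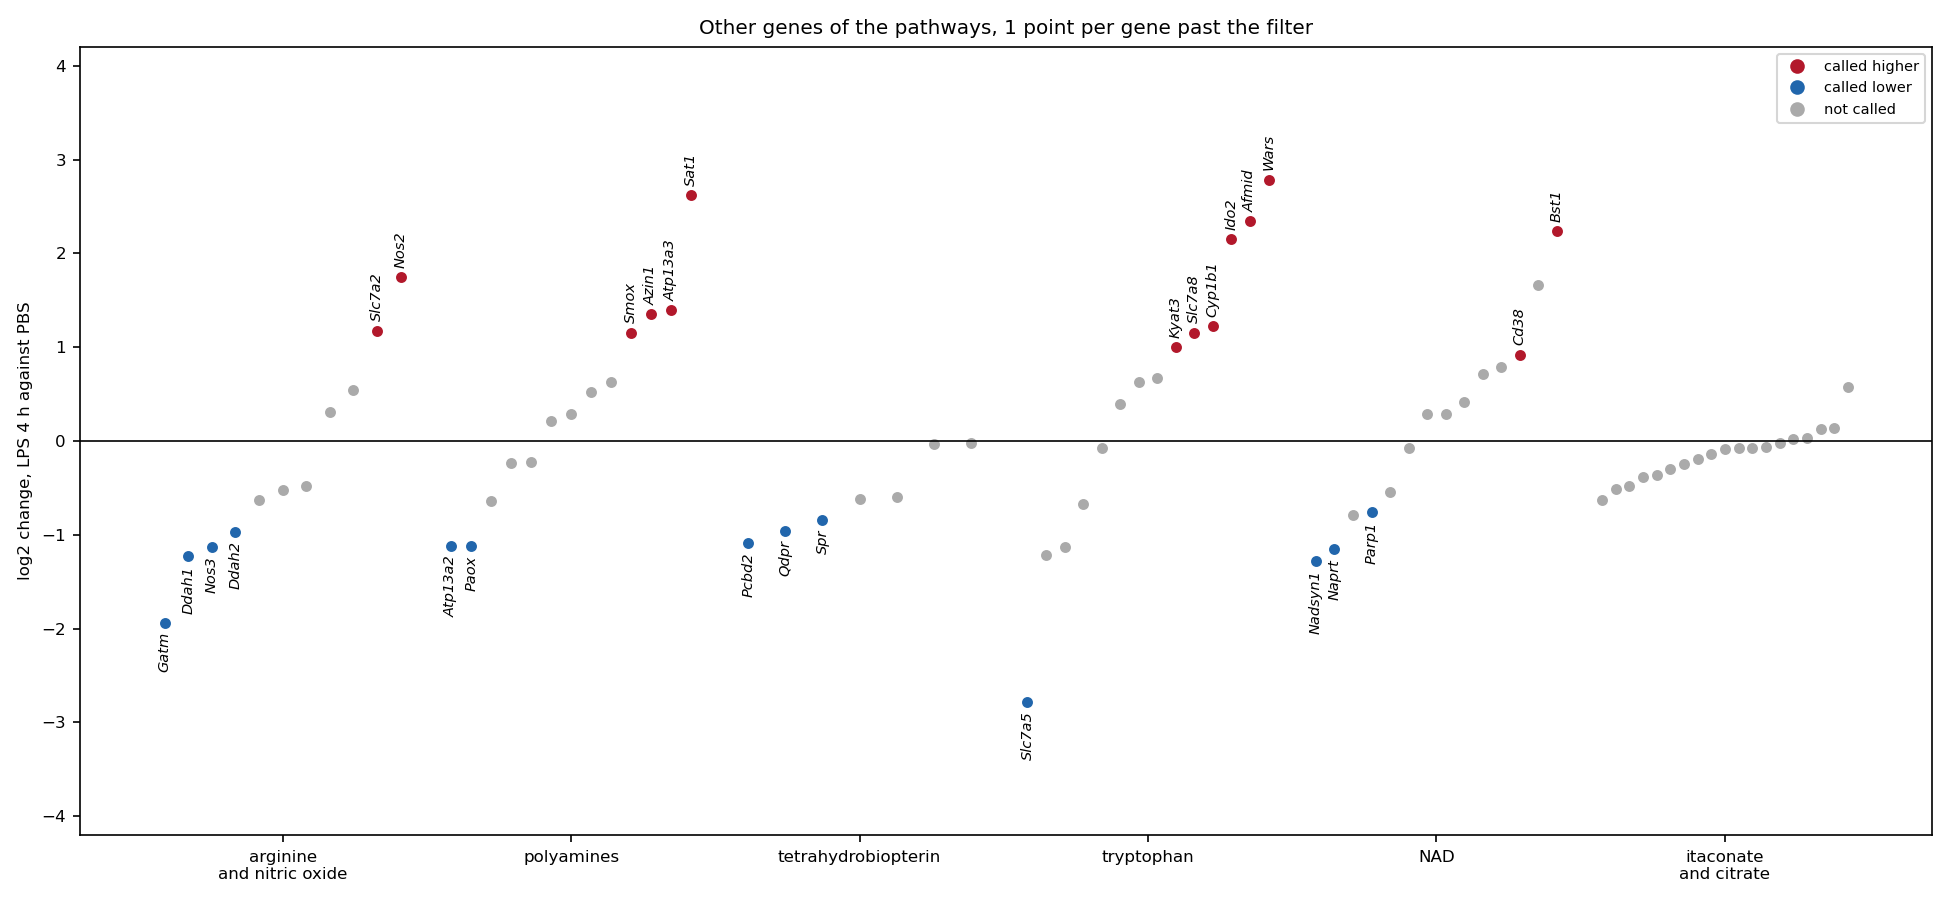
Log2 change between LPS 4 h and PBS (vertical axis) of the 78 tested pathway genes, 1 point per gene, sorted within each of the 6 lists and coloured by call. The tetrahydrobiopterin list shows 3 lower calls and no higher call, the tryptophan list 6 higher calls and Slc7a5 as the single lower one, and the itaconate and citrate list no call.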

How the data were processed

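RNA of cerebral vessels was measured in 12 libraries made with SMART-Seq v4 and Nextera XT, which keep no strand. The authors ran Salmon 1.2.1 on GRCm38.p6 and deposited estimated counts and TPM per transcript and library, with no replicates pooled, and a gene table of normalized signal made with tximport and DESeq2. Transcripts were joined to genes of GENCODE M21. 1096 of 140948 did not join, with 0.482% to 0.850% of the fragments, and were not used. Counts were summed per gene, rounded, and tested in edgeR 4.0.16 (R 4.3.3) with TMM factors (0.715 to 1.17), filterByExpr (minimum count 10, total 15), 1 quasi-likelihood fit over all libraries, and glmTreat against 1.5-fold, with Benjamini-Hochberg adjustment over 19150 genes and calls at 0.05. The SE is the absolute log2 change over the square root of F. The test was checked on simulated data. Labels gave the groups. Nothing says whether tissue was handled on separate days, so p-values measure the spread between these libraries. Pairs within a group differed by 2.21 to 2.93 times the counting variance in the median, more than repeat deposits of 1 library would. Separate preparations of the same RNA cannot be told apart from separate pools. Near-identical genes were found with blastn 2.17.0. Plots used matplotlib 3.10.9.

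The members and lists were chosen with earlier results of these data known. The naming rule took the members, per pathway list up to 5 called genes with the largest change at any time against PBS and up to 2 uncalled genes with the highest mean count, and 15 genes fixed by name, such as Nos2, Ido2 and Cd38. Likeness took the 2 genes with the highest r among genes averaging 50 counts or more. Alternatives were DESeq2 1.42.0, RLE factors, library size only, no filter, no fold limit, a transcript length offset, limma 3.58.1 on log2 of the gene table plus 1 or 10, a replicate block, fits restricted to the pair of groups, and omission of each library. Intervals cover counting error only. Some genes that the naming rule takes are not reported here.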

Additional observations from a re-analysis of the deposited data

Results flagged for a closer look

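The response to LPS differed between time points for 7 comparisons of the member genes, each by a test of the difference itself in edgeR. Acod1 was higher at LPS 30 min than at LPS 15 min by 3.53 on the log2 scale. In this comparison 2.69% of all genes were called higher. Acod1 passed the filter on low counts only through the LPS 4 h libraries. In a fit on LPS 15 min and LPS 30 min alone it did not pass. In limma with the larger pseudocount the call was lost (adjusted p = 0.663). Between LPS 30 min and LPS 4 h the differences were 7.42 for Acod1, 6.29 for Ido1, 4.08 for Arg2, 2.98 for Odc1, 2.28 for Nampt, and 1.29 for Gch1. Of all genes 16.9% were called higher between these groups. The members were chosen with earlier results known, so their number does not test whether they change more often than other genes. Groups of 3 libraries were not examined for single outlying values.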

How the results depend on the processing

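Of 16 called changes of member genes, 250 of 255 values under other settings kept direction and call, 5 lost the call, and none changed sign. For the 6 calls at LPS 4 h against PBS all 96 values kept. Apart from omitted libraries, the 4 h change of Acod1 ranged from 7.40 to 10.47 across settings. That of Ido1 ranged from 4.61 to 5.38, and that of Arg2 from 2.08 to 3.11. The lost calls were Gch1 at 15 min in limma (adjusted p = 0.0532 and 0.0633 with a pseudocount of 1 and 10), and Acod1 at 30 min against PBS in limma with 10 (0.91, adjusted p = 0.98) and in a fit on those groups alone (2.94, adjusted p = 0.0741), and against 15 min in limma with 10 (0.96, adjusted p = 0.663). The adjusted p of Acod1 at 30 min ranged from 6.11e-05 to 0.98, and of Gch1 at 15 min from 8.04e-12 to 0.0633. The causes were not tested.

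The count of called members at 15 min was 0 in limma with either pseudocount and 3 with no fold limit. At 30 min it was 1 in limma with 10, 1 with only the groups compared, and 4 with no fold limit. Between 15 and 30 min it was 0 in limma with 10, 0 with only the groups compared (where Acod1 did not pass the filter), 2 with no filter (Arg1 added), 5 with no fold limit, and 1 to 2 leaving out single libraries, with 2 without library 1 of LPS 15 min (Arg1 added). Called pathway genes at 15 min (1) were 0 in DESeq2, with RLE factors, with the length offset, and in limma with either pseudocount, 39 with no fold limit, and 0 to 1 leaving out libraries, with 0 without PBS library 1 or LPS 15 min library 1, and the call of Slc7a5 was also lost without LPS 15 min library 2. At 30 min (3) they were 1 in DESeq2 and in limma with either pseudocount, 31 with no fold limit, and 1 to 3 leaving out libraries, with 1 (Sat1) without PBS library 3 or LPS 30 min library 2 or 3. At 4 h (27) they were 62 with no fold limit and 47 with library size only (8 higher and 39 lower). These counts are to be read beside those of all genes tested, which were 19150 in the main fit. With no fold limit 7393 of all genes were called at 15 min, 7066 at 30 min, and 13124 at 4 h against PBS. Between 15 and 30 min 7153 were called. With library size only 10462 of all genes were called at 4 h.

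Library size only moved the median of all genes by -0.71 (4 h) and -0.17 (30 min) against PBS, by -0.58 (4 h against 30 min) and by -0.14 (30 against 15 min). It moved the share of higher calls among all calls from 58.0% to 18.2% at 4 h, from 82.6% to 61.4% at 30 min, from 57.9% to 37.2% for 30 against 15 min, and from 58.9% to 21.7% for 4 h against 30 min. It also called Ass1 lower at 4 h against 30 min (-0.83).

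Changes with no call turned sign in 14 values. Odc1 at 15 min was -0.02 in DESeq2, with RLE factors, with library size only, and without LPS 15 min library 3, -0.01 without PBS library 2, and -0.00 with only the groups compared. Acod1 at 15 min was 2.94 without PBS library 2 and as low as -1.37 without other libraries. Arg2 at 15 min was 0.14 in limma with 1 and ranged from -0.65 to 0.50 leaving out libraries, with 0.50 without PBS library 1. Ass1 at 30 min ranged from -0.08 to 0.02, with 0.02 without LPS 30 min library 1. Between 15 and 30 min Ido1 ranged from -1.37 to 0.01 (0.01 without LPS 15 min library 2), and Kmo from -0.53 to 0.69, with 0.69 and 0.08 without library 1 of LPS 15 min or LPS 30 min. Kmo at 4 h was -0.09 with library size only.

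Same-numbered libraries showed correlations of -0.049 to 0.068 in their deviations from group means, none over 0.1, and were not treated as pairs. With the replicate block the members called were 1, 2, and 6 against PBS at the 3 times, and the pathway genes called 2, 3, and 27. Of all 19150 genes 776, 856, and 6235 were called in that setting. Depth limits what can be said of Arg1, Kynu, and Kmo, with 0 to 25 counts per library.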
